A study of Arabidopsis thaliana with 35 samples.

Results

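Flavonoids are plant pigments and ultraviolet screens built from phenylalanine. Chalcone synthase makes the first dedicated intermediate, the early enzymes carry it to dihydroflavonols and flavonols, and the late enzymes turn dihydroflavonols into anthocyanins, the red and purple pigments of stressed leaves and young shoots, or, in the seed coat, into proanthocyanidins. In Arabidopsis the early genes are driven mainly by the MYB factors *MYB11*, *MYB12* and *MYB111*, and the late genes by complexes of a MYB, a bHLH and the WD40 protein *TTG1*.

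The 9 genes described here were chosen by name for their place in this pathway, of 28775 genes in the count table. *CHS* (AT5G13930, chalcone synthase) and *F3H* (AT3G51240, flavanone 3-hydroxylase) are early enzymes. *DFR* (AT5G42800, dihydroflavonol reductase), *LDOX* (AT4G22880, leucoanthocyanidin dioxygenase) and *UF3GT* (AT5G54060, a glycosyltransferase that adds xylose to anthocyanins) are late enzymes. *BAN* (AT1G61720, anthocyanidin reductase) leads into proanthocyanidins in the seed coat. *PAP1* (AT1G56650) and *PAP2* (AT1G66390) are closely related MYB activators of the late genes, and *TT8* (AT4G09820) is their bHLH partner. The other genes of the pathway and of its regulation were described from a list of 49, of which 46 had enough counts to be tested.

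The tissue was the shoot apical meristem region with the axillary meristem regions at the leaf bases, from 14 day old plants grown in vitro under long days on sucrose medium, with cotyledons, true leaves and roots cut away. Wild type was Col-0 (WT), and the mutant carried the T-DNA alleles *clf-29* and *swn-3* (*clf swn*, here *cs*), which disrupt *CLF* and *SWN*, the catalytic subunits of the Polycomb repressive complex PRC2 outside the seed. These mutants set no seed, so they were picked as seedlings from the progeny of a segregating parent. Untreated tissue was collected at time 0 (ctrl), and the rest 55 h after transfer to mock medium with DMSO (M), medium with 5 µM of the synthetic auxin 2,4-D (A), mock medium after wounding (W) or both together (WA). Wounding here was the cut through the upper hypocotyl that parted shoot from root. Each of the 8 groups of the 55 h series held 3 libraries, WT-ctrl held 5 and *cs*-ctrl held 6. The untreated libraries form the sets C0 and C1, whose difference the labels do not explain, with 3 and 2 in WT and 3 in each set in *cs*. Between the 3 *cs* libraries of set C1, counts differed by a chi-square of 3.001 to 4.998 per degree of freedom. Every other pair of libraries within a group was at 8.789 or more. Whether these 3 libraries are independent of each other was not tested. Mock libraries are those whose columns are named C2, assigned by elimination, and the study's read statistics list these libraries as D (DMSO). No label ties the C2 columns to mock, so every comparison with mock rests on that reading.

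The 35 libraries held 11375703 to 18094983 counts, so that 3 counts, the smallest number taken as a level, correspond to 0.166 to 0.264 CPM (counts per 1000000 counts of a library). Counts cannot tell fewer expressing cells from less RNA per cell in such tissue. *CLF* was at 29.5 to 55.6 CPM in the 17 WT libraries and at 0.775 to 1.92 CPM in the 18 *cs* libraries, as labelled, while *SWN* was at 39.6 to 68.7 and 18.7 to 33.3 CPM. Of the meristem markers, *STM*, *KNAT1* and *UFO* were detected in every group, *CLV3* was at 0 in WT-A and WT-WA, and *WUS* was at 0 in WT-WA. The embryo list of 6 genes, led by seed storage and oil body genes, summed to 7.74 to 35.1 CPM over all WT libraries and to 7659 to 18520 CPM over all *cs* libraries. The ovule and seed coat list of 7 genes summed to 7.02 to 39.3 CPM in WT and to 53.5 to 146 CPM in *cs*. A gene is said here to have risen or fallen where its adjusted p (Benjamini-Hochberg, over 21115 genes, edgeR's quasi-likelihood test) was under 0.05 and its log2 fold change was at least 0.6 in size. SD is over the libraries of a group. SE, or SE of the fit, is the size of the log2 fold change over the square root of the test's F statistic, and is approximate.

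The sequences just before the starts of 6 of the genes are shown because these genes carry the contrasts described below: *CHS* against the late enzymes, and *PAP1* against its near copy *PAP2*. Each runs 5′ to 3′ on the gene's own strand over the 250 bases before the annotated start (RefSeq, TAIR10.1). Capitals mark E-boxes (CANNTG, the letters that bHLH factors bind, of which the G-box CACGTG is a special case) and the auxin response element (TGTCTC), each searched on both strands.
*CHS*, chr5:4488226-4488475, plus strand: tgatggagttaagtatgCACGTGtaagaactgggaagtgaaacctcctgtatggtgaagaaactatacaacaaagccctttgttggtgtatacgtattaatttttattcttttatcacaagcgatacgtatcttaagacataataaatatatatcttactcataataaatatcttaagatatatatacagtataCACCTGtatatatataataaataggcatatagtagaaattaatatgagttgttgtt
*DFR*, chr5:17166033-17166282, minus strand: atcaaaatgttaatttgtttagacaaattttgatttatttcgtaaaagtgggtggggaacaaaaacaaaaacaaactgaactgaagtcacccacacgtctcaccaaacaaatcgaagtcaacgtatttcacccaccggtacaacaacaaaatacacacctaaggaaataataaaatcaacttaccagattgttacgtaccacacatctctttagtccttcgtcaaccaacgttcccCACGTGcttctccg
*LDOX*, chr4:12006210-12006459, minus strand: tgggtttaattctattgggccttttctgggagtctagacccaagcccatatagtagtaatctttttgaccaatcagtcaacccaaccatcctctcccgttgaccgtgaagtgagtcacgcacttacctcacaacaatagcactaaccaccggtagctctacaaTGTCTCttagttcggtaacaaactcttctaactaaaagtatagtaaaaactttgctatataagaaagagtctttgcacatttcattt
*UF3GT*, chr5:21938397-21938646, minus strand: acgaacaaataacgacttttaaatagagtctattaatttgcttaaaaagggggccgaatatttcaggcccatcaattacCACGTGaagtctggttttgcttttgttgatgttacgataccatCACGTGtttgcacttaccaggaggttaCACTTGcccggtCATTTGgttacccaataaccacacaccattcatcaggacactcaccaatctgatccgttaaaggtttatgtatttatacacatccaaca
*PAP1*, chr1:21235293-21235542, minus strand: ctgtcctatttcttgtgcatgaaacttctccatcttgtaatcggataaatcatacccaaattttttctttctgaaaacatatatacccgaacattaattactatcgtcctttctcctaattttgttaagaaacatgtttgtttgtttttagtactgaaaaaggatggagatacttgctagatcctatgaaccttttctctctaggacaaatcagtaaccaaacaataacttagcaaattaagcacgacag
*PAP2*, chr1:24763691-24763940, plus strand: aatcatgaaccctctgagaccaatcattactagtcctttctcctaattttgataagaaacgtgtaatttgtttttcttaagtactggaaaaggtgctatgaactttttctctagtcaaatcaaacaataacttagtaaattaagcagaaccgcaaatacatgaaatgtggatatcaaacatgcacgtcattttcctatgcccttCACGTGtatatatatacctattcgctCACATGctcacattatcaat
The G-box was in the windows of *CHS*, *DFR*, *UF3GT*, *PAP2*, *F3H* and *BAN*, and in 6.5% of 27443 windows of protein coding genes. In *DFR* it began 14 bases before the start, in *PAP2* 46 bases, and *UF3GT* had it at 171 and 128 bases. *LDOX*, *PAP1* and *TT8* had no G-box in these bases, although *LDOX* had almost the same profile as *DFR*. TGTCTC was in the windows of *LDOX* and *BAN* and in 10.9% of all windows, the MYB element ACCTACC in none of the 9 and in 1.2% of all, and any E-box in 55.3% of all. These are matches of letters only.

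In the TAIR10.1 annotation *DFR* lies at chr5:17164093-17166032 on the minus strand with 6 exons, *CHS* at chr5:4488476-4490264 on the plus strand with 2 and *UF3GT* at chr5:21936746-21938396 on the minus strand with 1. *LDOX*, at chr4:12004726-12006209 on the minus strand with 2 exons, and *TT8*, at chr4:6181881-6186523 on the plus strand with 7, share a chromosome. *PAP1* (chr1:21233555-21235292, minus strand, 3 exons) is apart from *PAP2* (chr1:24763941-24765541, plus strand, 3 exons), which follows its relatives *MYB113* and *MYB114* on that chromosome. *F3H* is at chr3:19025192-19026872 on the plus strand with 3 exons and *BAN* at chr1:22790966-22792803 on the minus strand with 6.

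Counting limits the reading of *F3H* and *BAN*. *F3H* is overlapped on the opposite strand by AT3G51238 over 93.8% of its exon bases, and the library kit named in the methods does not mark strand. AT3G51238 had 0 counts in all 35 libraries, and *F3H* had 0 to 20. Its highest group mean was 0.841 CPM in *cs*-ctrl, against 201 CPM of *CHS* there. The part of the overlap in these low counts was not tested, so *F3H* is given as called or not, with no claim on its level. *BAN* had 0 to 2 counts in every library and was not tested, which left 8 of the 9 genes. Of these 8, *DFR*, *LDOX*, *UF3GT* and *PAP2* shared 1.2 to 4.4% of their 50-base exon words with another place in the genome, and *CHS*, *PAP1* and *TT8* shared none.

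**Figure D1:**
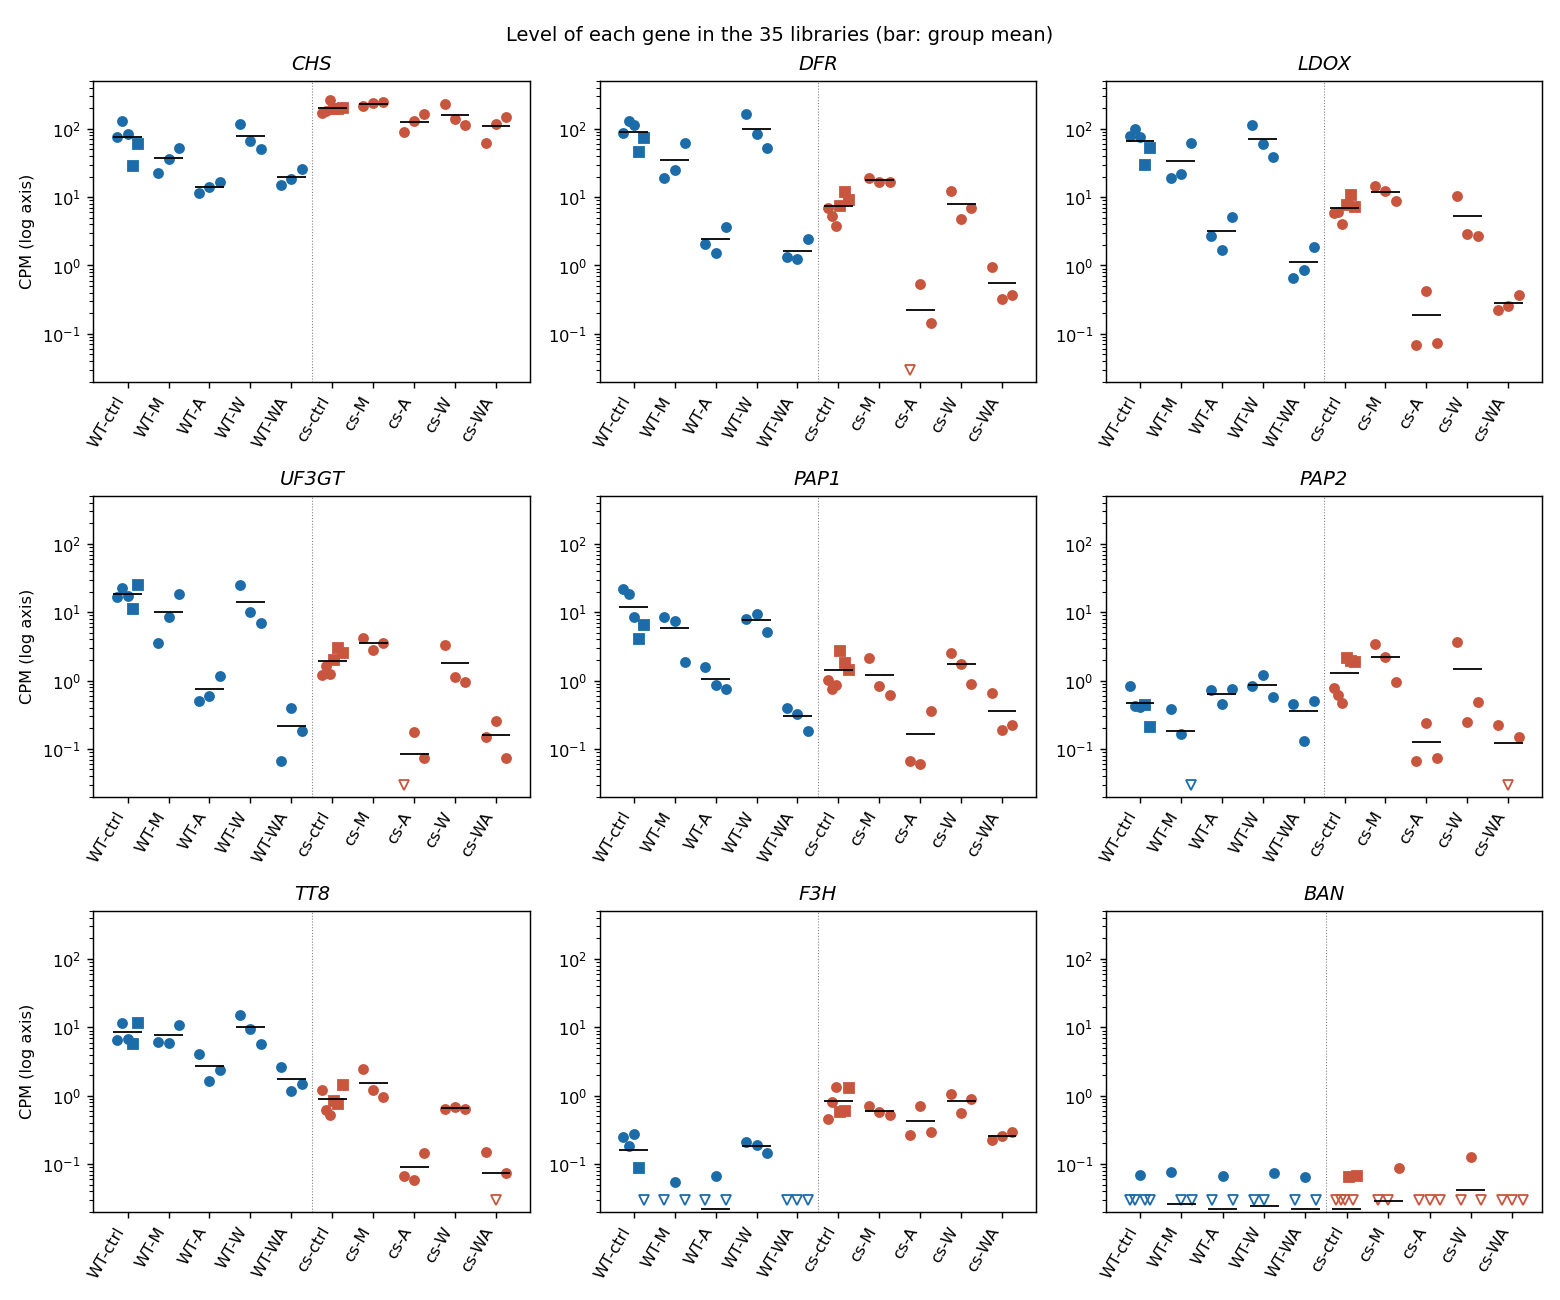
Level of the 9 genes in each of the 35 libraries, in CPM on a log axis, with WT in blue, *cs* in red, set C1 of the untreated libraries as squares, 0 counts as open triangles at the bottom and a bar at each group mean. *CHS* lies higher in *cs* than in WT and is at 61.1 CPM or more in every *cs* library, while *DFR*, *LDOX* and *UF3GT* lie lower in untreated and wounded *cs* and drop with 2,4-D in both genotypes.

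Per kilobase of exon, the late enzymes were among the higher members in untreated WT, at a mean of 59.8 CPM per kb for *DFR*, 47.5 for *LDOX* and 11.2 for *UF3GT*, beside 44.4 for *CHS*. The activators stood at 10.8 CPM per kb (*PAP1*), 4.23 (*TT8*) and 0.464 (*PAP2*). In untreated *cs* the early and late steps were apart: *CHS* was at 118 CPM per kb, and *DFR*, *LDOX* and *UF3GT* at 4.86, 4.96 and 1.17.

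The first comparison asked how the loss of *CLF* and *SWN* changes the pathway in untreated tissue. *CHS* rose and the 3 late enzymes fell, as did *PAP1* and *TT8*, while *PAP2* rose from a very low level. *CHS* was at 28.6, 60.1, 75.7, 82.8 and 131 CPM in the WT-ctrl libraries and at 170 to 264 CPM (median 196) in the 6 *cs*-ctrl libraries. Every *cs* library was above every WT library, a change of 1.41 ± 0.29 on the log2 scale (adjusted p = 0.000121, edgeR).

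*DFR* went the other way. It was at 45.7, 73.9, 88.1, 116 and 131 CPM in WT-ctrl and at 3.78 to 11.7 CPM (median 7.25) in *cs*-ctrl, and fell by 3.64 ± 0.34 (adjusted p = 2.55e-10). *LDOX* fell by 3.27 ± 0.36 from 66.5 ± 26.1 to 6.94 ± 2.24 CPM (SD, n = 5 and 6; edgeR adjusted p = 6.5e-09). *UF3GT* fell by 3.28 ± 0.37 from 18.5 ± 5.23 to 1.93 ± 0.702 CPM (edgeR adjusted p = 1.01e-08). For none of these did a *cs* library reach the lowest WT library.

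Among the activators, *PAP1* was at 22.2, 18.8 and 8.66 CPM in WT set C0, at 4.04 and 6.44 in WT set C1, and at 0.745 to 2.73 in *cs*-ctrl. It fell by 3.07 ± 0.43 (adjusted p = 4.58e-07, edgeR). *TT8* was at 5.71 to 11.8 CPM in WT-ctrl and at 0.53 to 1.42 in *cs*-ctrl, a fall of 3.23 ± 0.32 (adjusted p = 6.44e-10, edgeR). *PAP2* stayed low in both: 0.212 to 0.838 CPM in WT-ctrl and 0.464 to 2.14 in *cs*-ctrl, with overlapping libraries. Its rise of 1.48 ± 0.59 (adjusted p = 0.0302, edgeR) rested on set C1, where the 3 closely similar *cs* libraries were at 1.89 to 2.14 CPM. With set C0 alone it was 0.24 (adjusted p = 0.821), and the call was also lost, at 1.27 to 1.46, without set C1 library 1, 2 or 3 of *cs*, set C0 library 2 or 3 of WT or set C1 library 2 of WT.

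Thus 3 members rose and 5 fell of the 8 tested, where 13.6% of all 21115 genes rose and 20.4% fell. The median log2 fold change of the members was -3.15. The 2 untreated sets of WT differed in level: *CHS* averaged 96.5 CPM in C0 and 44.3 in C1, *DFR* 112 and 59.8, *LDOX* 83.3 and 41.2, and *PAP1* 16.5 and 5.24. In both sets the WT libraries of *DFR*, *LDOX* and *PAP1* stayed above all *cs*-ctrl libraries, and those of *CHS* below.

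The neighbouring genes of the pathway parted along the same line in untreated tissue. All 4 other early enzymes rose: *F3'H* (which adds a hydroxyl to the B ring) by 3.86 ± 0.27, *FLS1* (flavonol synthase) by 3.26 ± 0.23, *CHI* (chalcone isomerase) by 2.16 ± 0.21 and *CHIL* (its non-catalytic partner) by 0.74 ± 0.28. Of the 8 other genes of anthocyanin decoration and transport, 6 fell and none rose, among them *UGT75C1* (a 5-O-glucosyltransferase; -3.24 ± 0.29), *5MAT* (a malonyltransferase; -3.03 ± 0.28), *TT19* (a glutathione transferase needed for transport to the vacuole; -2.68 ± 0.27) and *AT3AT1* (a coumaroyltransferase). *AT3AT1* shares 39.9% of its exon words with other places, and genes on the other strand overlap *UGT75C1* over 27.1% and *TT19* over 9.9% of their exons, so their own levels are uncertain.

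Of the other partners of the activator complex, *MYB113* fell by 3.10 ± 0.57 and *GL3* by 1.75 ± 0.28, while *MYB114* (0.67 ± 0.44), *EGL3* (-0.23 ± 0.12) and *TTG1* (-0.26 ± 0.06) did not pass. All 4 flavonol regulators rose: *MYB11* by 4.26 ± 0.39, *MYB12* by 2.50 ± 0.36, *HY5* (a bZIP factor of light signalling) by 1.78 ± 0.23 and *MYB111* by 1.07 ± 0.28. Of the 10 repressors of the pathway 5 fell, among them *ETC1* (-3.56 ± 0.36) and *MYBL2* (-1.43 ± 0.50), and 1 rose, *MYB4* (0.65 ± 0.19). In all, 13 of the 46 other pathway genes rose and 16 fell, with a median of -0.23. The seed coat regulators *TT2* and *TT16* rose from at most 1 count per WT-ctrl library to 2 to 5 and 5 to 10 counts per *cs*-ctrl library, without *BAN*, which stayed at 0 or 1 count in those libraries. The other tested regulator of proanthocyanidins, *TTG2*, fell. So did *AHA10* (-1.81), the 1 tested gene of the list of other proanthocyanidin enzymes and transport. *AHA10* fell in *cs* over WT after each treatment as well.

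**Figure D2:**
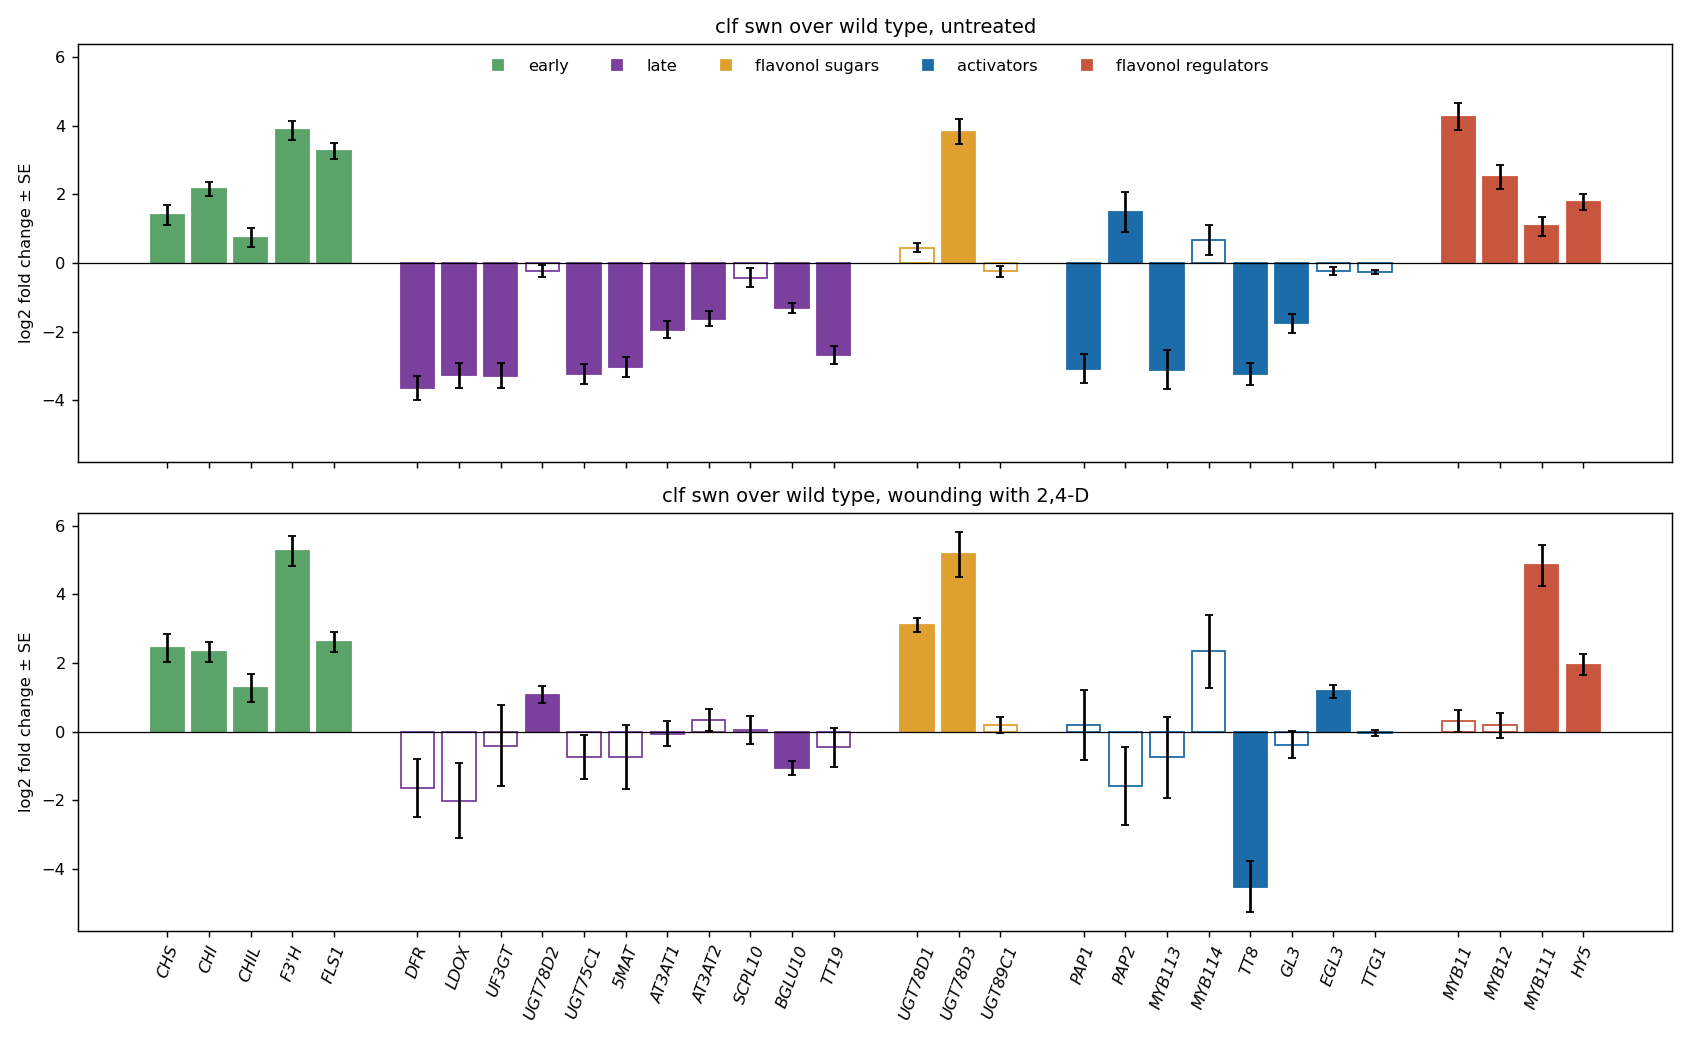
Log2 fold change of *cs* over WT (± SE of the fit) for the enzymes and regulators by branch, in untreated tissue above and after wounding with 2,4-D below, with filled bars for genes that passed the test. The early enzymes are higher in *cs* in both states, and the late enzymes *DFR*, *LDOX* and *UF3GT*, lower by over 3 in untreated tissue, do not pass after wounding with 2,4-D.

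After 55 h on mock medium the same split was seen for most members, with a smaller gap in the late enzymes. *CHS* was at 22.8, 36.1 and 52 CPM in WT-M and at 218, 237 and 248 CPM in *cs*-M, a rise of 2.70 ± 0.40 (edgeR adjusted p = 2.39e-06). *LDOX* was at 19.1, 22.2 and 61.4 CPM in WT-M and at 14.5, 12.5 and 8.83 in *cs*-M, and fell by 1.47 ± 0.48 (edgeR adjusted p = 0.0117). *UF3GT* fell by 1.51 ± 0.49 (edgeR adjusted p = 0.0117), although its libraries overlapped, and *DFR*, at 35.1 ± 22.7 and 17.6 ± 1.3 CPM (SD, n = 3), did not pass (-0.95 ± 0.44, edgeR adjusted p = 0.0743).

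Library 3 of WT-M was the highest of its group for *DFR*, *LDOX* and *UF3GT*. Without it *LDOX* (-0.76) and *UF3GT* (-0.79) no longer passed, and *UF3GT* did not pass in a fit of these 2 groups alone (-1.50) either. *LDOX* was also lost without library 3 of *cs*-M (-1.3), and without library 1 of WT-M *DFR* passed at -1.24. For *UF3GT* the log2 ratio of *cs* to WT was 0.23, -1.59 and -2.37 in replicates 1, 2 and 3, which were made at different times.

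The activators again differed among themselves. *PAP1* was at 8.65, 7.41 and 1.86 CPM in WT-M and at 2.13, 0.822 and 0.612 in *cs*-M, and fell by 2.26 ± 0.62 (edgeR adjusted p = 0.00334). *TT8* fell by 2.23 ± 0.42 (edgeR adjusted p = 6.26e-05). *PAP2* was at 0.386, 0.166 and 0 CPM in WT-M and at 3.48, 2.22 and 0.962 in *cs*-M, and rose by 3.63 ± 0.86 (edgeR adjusted p = 0.000866). In all 3 members rose (*CHS*, *F3H*, *PAP2*) and 4 fell, where 14.4% of all genes rose and 17.1% fell, with a member median of -1.21. Of the other pathway genes 13 rose and 12 fell. All 4 early enzymes were again among the first, and *MYB113* (-4.02 ± 0.79) and *GL3* (-1.67 ± 0.40) among the second.

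After wounding alone, *CHS* was at 116, 66.4 and 50.1 CPM in WT-W and at 232, 137 and 114 in *cs*-W. It rose by 1.13 ± 0.38 (edgeR adjusted p = 0.0158), a call lost without library 1 of *cs*-W (0.78) or library 2 (1.01) or 3 (0.90) of WT-W. *DFR* was at 166, 84.4 and 52.5 CPM in WT-W and at 12.4, 4.81 and 6.89 in *cs*-W, and fell by 3.58 ± 0.47 (edgeR adjusted p = 3.59e-07). *LDOX* fell by 3.66 ± 0.52, *UF3GT* by 2.90 ± 0.52, *PAP1* by 2.06 ± 0.58 and *TT8* by 3.86 ± 0.46. *PAP2* did not pass (0.80 ± 0.70, and -1.20 without library 1 of *cs*-W). This made 2 members that rose (with *F3H*) and 5 that fell, where 14.8% of all genes rose and 16.5% fell, and 11 other pathway genes that rose and 15 that fell.

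With 2,4-D, *CHS* was at 11.6, 14.2 and 16.6 CPM in WT-A and at 89.5, 130 and 163 in *cs*-A. It rose by 3.20 ± 0.42 (edgeR adjusted p = 1.36e-07). *DFR* was at 2.09, 1.51 and 3.6 CPM in WT-A and at 0, 0.535 and 0.145 in *cs*-A, so that both genotypes were low and *cs* the lower (-3.25 ± 0.94, edgeR adjusted p = 0.00334). *LDOX* fell by 3.93 ± 0.97, *UF3GT* by 2.96 ± 1.06, *PAP1* by 2.67 ± 0.97 and *TT8* by 4.77 ± 0.67, where the WT libraries were at 0.504 to 5.16 CPM. The *UF3GT* call was lost without library 1 of *cs*-A (-2.44) or 3 of WT-A (-2.52), and the *PAP1* call without library 1 (-2.33) or 2 (-2.23) of *cs*-A or 1 of WT-A (-2.29).

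*PAP2* was higher in WT here, at 0.461 to 0.747 CPM against 0.0675 to 0.238 CPM in *cs*-A, but did not pass (-2.20 ± 1.02, edgeR adjusted p = 0.0581). It passed in DESeq2 (adjusted p = 0.0268) and with the replicate number as a block (edgeR adjusted p = 0.0414). In all 2 members rose (*CHS*, *F3H*) and 5 fell, where 23.5% of all genes rose and 22.8% fell. Among the other pathway genes 16 rose and 10 fell.

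Wounding with 2,4-D left fewer differences. *CHS* rose by 2.43 ± 0.41 (edgeR adjusted p = 7.15e-06), from 15.3, 18.4 and 25.4 CPM in WT-WA to 61.1, 119 and 148 in *cs*-WA. *TT8* was at 2.63, 1.17 and 1.48 CPM in WT-WA and at 0.148, 0 and 0.0743 in *cs*-WA. These are 82 counts against 3 over the libraries of each group, a ratio of 24.9 with an exact 95% counting interval of 8.24 to 123, and the fall passed the test (edgeR adjusted p = 4.9e-06). *DFR* was at 1.32, 1.24 and 2.41 CPM in WT-WA and at 0.962, 0.319 and 0.372 in *cs*-WA, which did not pass (-1.64 ± 0.85, edgeR adjusted p = 0.0934). *LDOX* did not pass either (-2.01 ± 1.09, edgeR adjusted p = 0.107), although the libraries of neither gene overlapped and both passed in DESeq2 (adjusted p = 0.00822 and 0.00548) and in a fit of these 2 groups alone. *PAP1* (0.19 ± 1.02), *PAP2* (-1.59 ± 1.14) and *UF3GT* (-0.41 ± 1.19) did not pass and were under 1 CPM in all 6 libraries. In all 2 members rose (*CHS*, *F3H*) and 1 fell, or 5 called members with DESeq2, where 23.4% of all genes rose and 19.8% fell.

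Of the other pathway genes, 18 rose and 5 fell in *cs*-WA over WT-WA. The early enzymes were again higher, with *F3'H* at 5.26 ± 0.43, *FLS1* at 2.61 ± 0.30, *CHI* at 2.32 ± 0.29 and *CHIL* at 1.28 ± 0.41. Of the flavonol glycosyltransferases *UGT78D3* rose by 5.17 ± 0.66 and *UGT78D1* by 3.10 ± 0.20. *MYB111* rose by 4.85 ± 0.60 and *HY5* by 1.95 ± 0.30, while *MYB12* (0.18 ± 0.37) did not pass. *EGL3* rose by 1.17 ± 0.18, and *MYB113* (-0.75 ± 1.17), *MYB114* (2.33 ± 1.07), *GL3* (-0.38 ± 0.40) and *TTG1* (-0.04 ± 0.08) did not pass. *TT16* reached 38 to 49 counts and *TT2* 11 or 12 counts per *cs*-WA library, against 0 or 1 and 0 in WT-WA. *BAN* was at 0 in all 3 *cs*-WA libraries, *AHA10* fell by 2.10 and *TTG2* rose.

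**Figure D3:**
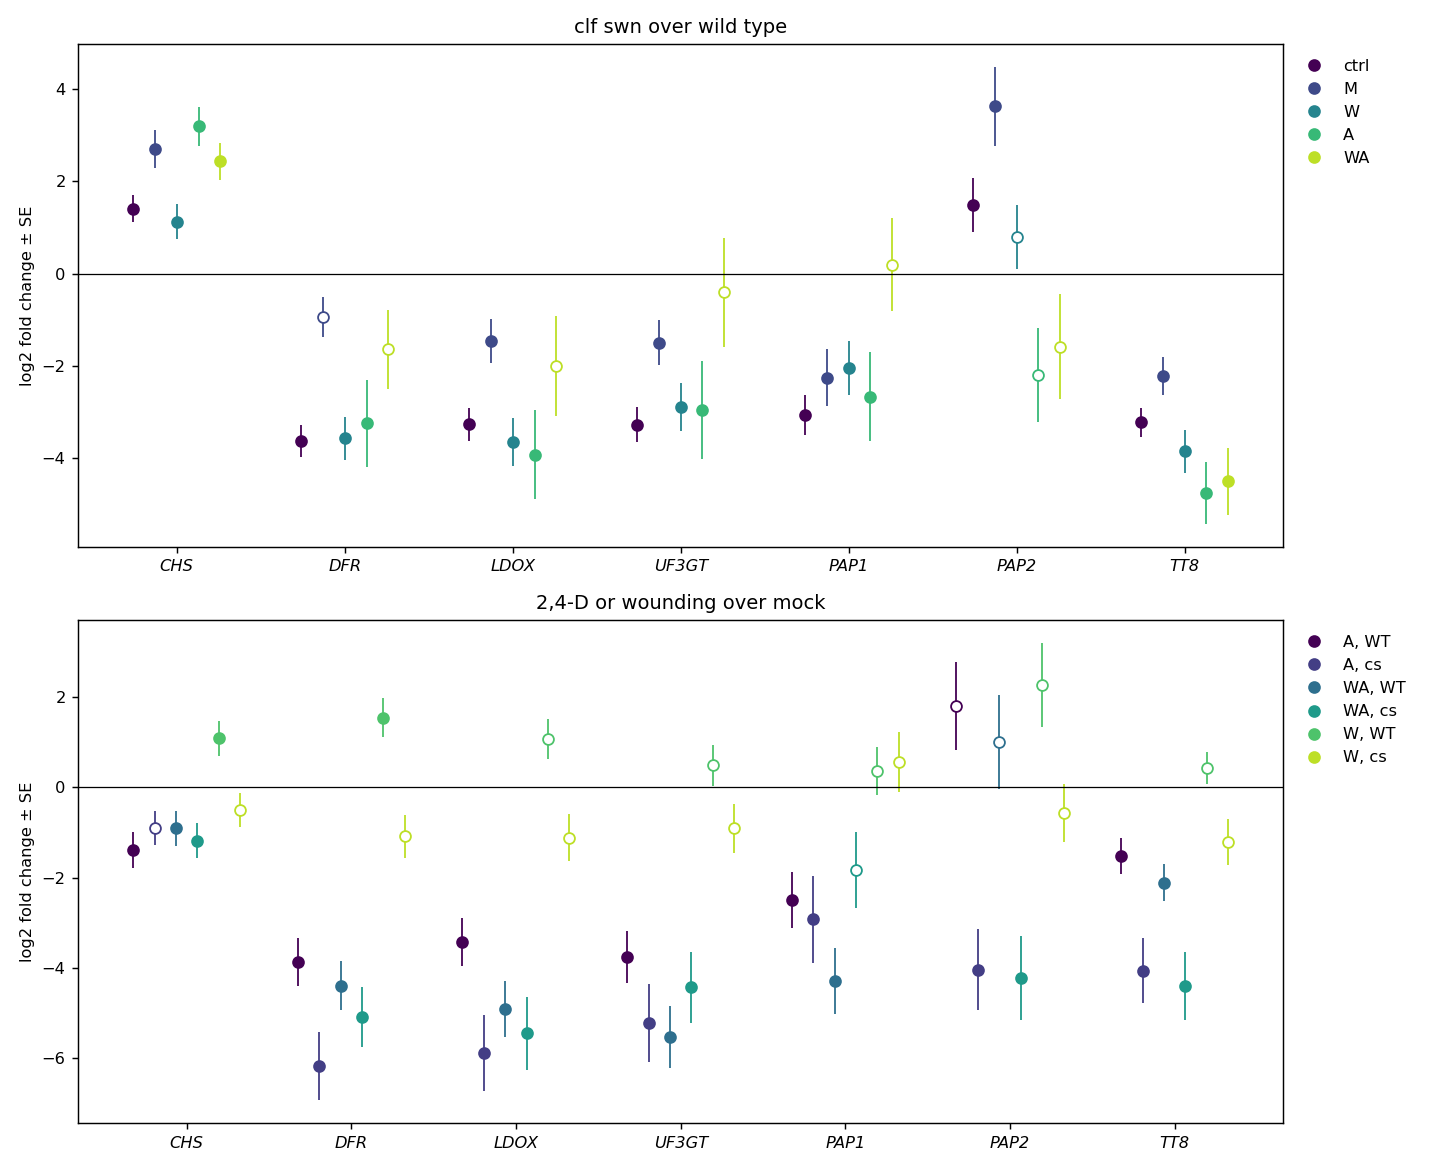
Log2 fold change (± SE of the fit) of 7 genes, for *cs* over WT in each state above and for 2,4-D (A), wounding (W) or both (WA) over mock in each genotype below, with filled points for genes that passed the test; *F3H* and *BAN* are left out for their low counts. *CHS* is above 0 and *TT8* below 0 in all 5 states, and in the lower panel the points of *DFR*, *LDOX* and *UF3GT* for A and WA lie between -3.43 and -6.17.

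The second set of comparisons asked what 2,4-D does within each genotype. The comparisons with mock in 1 genotype share its 3 mock libraries. In WT, *CHS* and the late enzymes fell with 2,4-D over mock. *DFR* fell by 3.87 ± 0.53 (edgeR adjusted p = 3.16e-07) from 19.1, 25 and 61.0 CPM in WT-M to 2.09, 1.51 and 3.60 in WT-A, a 14.6-fold change. *LDOX* fell by 3.43 ± 0.54 from 34.2 ± 23.6 to 3.18 ± 1.78 CPM (SD, n = 3; edgeR adjusted p = 3.13e-06), and *UF3GT* by 3.75 ± 0.58 from 10.2 ± 7.60 to 0.75 ± 0.353 CPM (edgeR adjusted p = 2.24e-06). For none of the 3 enzymes did the WT-M and WT-A libraries overlap.

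*CHS* fell less, by 1.39 ± 0.40, from 37.0 ± 14.6 to 14.1 ± 2.49 CPM (SD, n = 3; edgeR adjusted p = 0.00419). *PAP1* fell by 2.50 ± 0.62 and *TT8* by 1.52 ± 0.39. *PAP2* did not pass (1.80 ± 0.97, edgeR adjusted p = 0.111). In all 6 members fell and none rose, where 20.7% of all genes fell and 19.7% rose, and the member median was -2.01.

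Over the same contrast 25 of the 46 other pathway genes fell and 3 rose, with a median of -0.87. Among the genes that fell were 6 of the 8 of anthocyanin decoration and transport, with *5MAT* at -4.17 ± 0.47, *UGT75C1* at -3.09 ± 0.41 and *TT19* at -2.73 ± 0.40, and all 3 flavonol glycosyltransferases. Of these 3, *UGT89C1* is overlapped on the other strand by AT1G06002 over 99.6% of its exon bases, so its own level is uncertain. *MYB111* fell by 4.61 ± 0.60, *MYB113* by 4.12 ± 0.77, *MYB114* by 2.82 ± 0.72, *MYBL2* (a MYB repressor of the pathway) by 1.74 ± 0.75 and *GL3* by 1.62 ± 0.39. *EGL3* (-0.30 ± 0.17) and *TTG1* (-0.40 ± 0.08) did not pass. Of the 4 early enzymes beside *CHS* and *F3H*, *F3'H* fell by 2.46 ± 0.46, while *CHI*, *CHIL* and *FLS1* did not pass, and the median of the 4 was -0.22. The exceptions that rose were *MYB11* by 5.63 ± 0.59, *MYB12* by 1.47 ± 0.46 and *C4H* (an enzyme of the general phenylpropanoid route) by 1.42 ± 0.23.

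Wounding with 2,4-D over mock gave the same 6 falls in WT: *UF3GT* by 5.53 ± 0.69, *LDOX* by 4.91 ± 0.61, *DFR* by 4.39 ± 0.55, *PAP1* by 4.29 ± 0.73, *TT8* by 2.11 ± 0.41 and *CHS* by 0.91 ± 0.40. *CHS* was just past the threshold (edgeR adjusted p = 0.0442). It was lost under RLE scaling (-0.87), with no filter on low counts (-0.88), with at least 10 counts in every library (-0.88), and without library 2 (-0.92) or 3 (-0.60) of WT-M or 1 (-0.77) or 2 (-0.85) of WT-WA. Over all genes 25% fell and 23% rose. Of the other pathway genes 27 fell and 3 rose, the same 3 as with 2,4-D alone. Against wounding alone, WT-WA had 7 members that fell (the same 6 and *F3H*), led by *UF3GT* (-6.01 ± 0.68), *LDOX* (-5.97 ± 0.62) and *DFR* (-5.93 ± 0.56), where 21.9% of all genes fell and 14.8% rose. Against 2,4-D alone no member was called in WT (2 at an unadjusted p under 0.05, and 0 called by DESeq2), where 4.79% of all genes fell and 1.25% rose. The lowest of the estimates with counts in both groups was -1.78 ± 0.85 (*PAP1*), and that of *DFR* was -0.52 ± 0.65.

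In *cs*, the late enzymes fell to a few counts with 2,4-D over mock, while *CHS* stayed at 89.5 CPM or more. *DFR* was at 19.1, 16.8 and 16.9 CPM in *cs*-M and at 0, 0.535 and 0.145 in *cs*-A, a fall of 6.17 ± 0.75 (edgeR adjusted p = 4.92e-07). *LDOX* fell by 5.89 ± 0.84 (edgeR adjusted p = 6.11e-06) from 14.5, 12.5 and 8.83 CPM to 0.0675, 0.416 and 0.0725. *UF3GT* fell by 5.21 ± 0.86 from 3.49 ± 0.70 to 0.0836 ± 0.0897 CPM (SD, n = 3; edgeR adjusted p = 4.82e-05). The *cs*-A libraries held 0 to 9 counts of each of these enzymes.

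*CHS* was at 218, 237 and 248 CPM in *cs*-M and at 89.5, 130 and 163 in *cs*-A. The libraries did not overlap, but the change of -0.90 ± 0.38 did not pass (edgeR adjusted p = 0.0877), except in a fit of these 2 groups alone (-0.87). *PAP2* fell by 4.03 ± 0.90, *TT8* by 4.06 ± 0.72 and *PAP1* by 2.92 ± 0.96. The *PAP1* call was lost without library 1 (-2.58) or 2 (-2.48) of *cs*-A or 1 of *cs*-M (-2.19). In all 6 members fell and none rose, where 6.35% of all genes fell and 5.82% rose, and the member median was -4.04. Of the 4 early enzymes beside *CHS* and *F3H*, *CHIL* fell by 1.23 ± 0.38, *F3'H* by 1.00 ± 0.31 and *CHI* by 0.94 ± 0.27, while *FLS1* did not pass, and the median of the 4 was -0.97. Of the other pathway genes 17 fell and none rose, including *5MAT* (-6.37 ± 0.72), *TT19* (-5.50 ± 0.60), *UGT75C1* (-2.79 ± 0.50) and *SCPL10* (a sinapoyltransferase of anthocyanins; -2.10 ± 0.41). *MYB114* fell by 2.73 ± 0.74, while *MYB113* (-1.89 ± 1.35), *GL3* (-0.86 ± 0.49), *EGL3* (0.36 ± 0.17), *TTG1* (-0.16 ± 0.08), *MYBL2* (-0.41 ± 0.72), *MYB12* (-0.35 ± 0.36) and *MYB111* (-0.50 ± 0.37) did not pass.

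Wounding with 2,4-D over mock gave 6 falls in *cs* as well, with *CHS* (-1.18 ± 0.38, edgeR adjusted p = 0.0188) in place of *PAP1* (-1.83 ± 0.84, edgeR adjusted p = 0.0981). *LDOX* was at -5.45 ± 0.80, *DFR* at -5.08 ± 0.67, *UF3GT* at -4.43 ± 0.78 and *PAP2* at -4.22 ± 0.93. *TT8* fell from 61 to 3 counts over the group, a ratio of 23.0 with a 95% counting interval of 7.51 to 115. *CHS* was lost without library 1 (-0.90) or 2 (-1.17) of *cs*-WA, and *PAP1* passed in DESeq2 (adjusted p = 0.0469). Here 8.49% of all genes fell and 9.81% rose, and of the other pathway genes 17 fell and 3 rose. The 4 early enzymes beside *CHS* and *F3H* were among those that fell, with a median of -1.12, and *FLS1* (-0.70 ± 0.27, edgeR adjusted p = 0.0480) was lost in DESeq2 (adjusted p = 0.0568) and with the replicate number as a block (adjusted p = 0.0504).

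Against wounding alone, *cs*-WA had 7 members that fell, *DFR* by 4.00 ± 0.70, *LDOX* by 4.33 ± 0.86, *UF3GT* by 3.52 ± 0.84, *PAP2* by 3.65 ± 0.96, *PAP1* by 2.39 ± 0.79 and also *TT8* and *F3H*, where 7.12% of all genes fell and 6.55% rose. The count was 4 without library 1 of *cs*-W, 3 without library 2 of *cs*-WA, and 4 in a fit of the 2 groups alone, which had 5 members left to test. *DFR*, *LDOX* and *UF3GT* kept their calls in each of these 3 fits. *TT8* had 28 counts in *cs*-W against 3 in *cs*-WA, a ratio of 9.32 with a 95% counting interval of 2.88 to 47.9. *PAP2* was at -1.66 without library 1 of *cs*-W and at -2.97 without library 2 of *cs*-WA, and *TT8* at -2.52 without the latter, none of them past the threshold. *PAP1* was lost without library 1 (-2.03) or 2 (-2.40) of *cs*-W or 2 (-1.99) or 3 (-2.17) of *cs*-WA, and *F3H* without library 1 of *cs*-W or 1 or 2 of *cs*-WA. Against 2,4-D alone no member was called in *cs* (0 at an unadjusted p under 0.05, and 0 called by DESeq2), where 5.11% of all genes rose and 0.488% fell. With levels this low the SE there was 1.16 to 1.56 for all members but *CHS* (0.38) and *F3H* (0.58).

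Photosynthetic leaf genes moved with 2,4-D too, mainly in WT. The list of 5 (small subunits of Rubisco and light harvesting proteins, none at 0 in any group) summed to 9900 to 11930 CPM in WT-M, 1375 to 1948 in WT-A and 945 to 1122 in WT-WA. In *cs* it summed to 6362 to 7583 CPM in *cs*-M, 5436 to 8988 in *cs*-A and 4471 to 6242 in *cs*-WA, where every library was below those of *cs*-M. After wounding alone it summed to 5570 to 7445 CPM in WT-W, below every WT-M library, and to 6763 to 9268 in *cs*-W. The falls of *DFR* in *cs*, 71.8-fold in *cs*-A and 33.9-fold in *cs*-WA, stood beside leaf sums of 4471 to 8988 CPM. The 1 *cs*-A library above the *cs*-M range was the one with 0 counts of *DFR*. Those in WT, 14.6-fold and 20.9-fold, stood beside leaf sums of 945 to 1948 CPM. In untreated tissue the leaf list was at 12260 to 17250 CPM in WT and at 7069 to 8737 in *cs*, and single leaf genes changed by -3.00 (*LHCB2.2*) to -0.35 (*RBCS1A*), against -3.64 for *DFR*. The root tip list of 4 genes lay between 27.2 and 139 CPM over all libraries and differed between treatments. In WT it summed to 49.5 to 62.8 CPM in WT-M, 68.3 to 78.7 in WT-A, 27.2 to 30.5 in WT-W and 100.3 to 139.2 in WT-WA. In *cs* it summed to 60.55 to 62.7 CPM in *cs*-M, 64.5 to 67.2 in *cs*-A, 47.7 to 64.05 in *cs*-W and 97.5 to 113 in *cs*-WA. The part of other cell types in these results was not tested beyond these values.

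**Figure D4:**
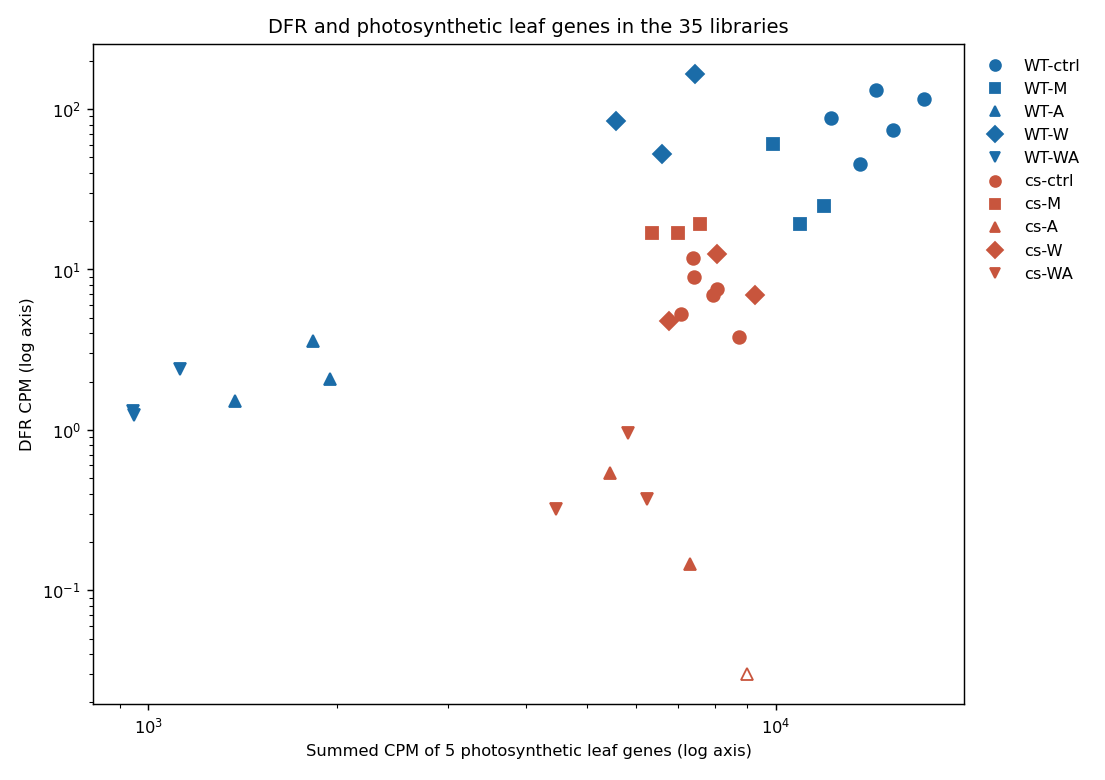
*DFR* in CPM against the summed CPM of 5 photosynthetic leaf genes in each of the 35 libraries, both on log axes, with WT in blue and *cs* in red and a marker shape for each treatment; the open triangle at the bottom had 0 counts of *DFR*. The WT libraries with 2,4-D are low on both axes, while the *cs* libraries with 2,4-D are low in *DFR* at 4471 to 8988 CPM of the leaf genes.

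The test of the difference between the genotypes in the response to 2,4-D (the interaction, called by its adjusted p alone) passed for *PAP2* and *TT8*. The *PAP2* response was lower in *cs* than in WT by 5.83 ± 1.33 (edgeR adjusted p = 0.000706), and by 5.22 ± 1.43 (edgeR adjusted p = 0.00372) with wounding as well. *TT8* was lower by 2.54 ± 0.87 (edgeR adjusted p = 0.0182) and 2.29 ± 0.94 (edgeR adjusted p = 0.0472), the latter with 3 counts of *TT8* over all of *cs*-WA. For *TT8* the first call was lost without library 1 (-2.40) or 2 (-2.29) of *cs*-A, 1 of *cs*-M (-2.04) or 1 of WT-A (-2.14). The second was lost with the replicate number as a block (-2.21, edgeR adjusted p = 0.0586), which left 1 called member, with no filter on low counts (-2.30), and without library 1 (-2.16) or 2 (-2.13) of WT-M, 1 of *cs*-M (-1.78), 1 of WT-WA (-1.89), or 2 (-1.66) or 3 (-2.32) of *cs*-WA. *PAP1*, at 2.45 ± 1.22 with both treatments, did not pass, but passed in DESeq2 (2.50, adjusted p = 0.0332) and without library 1 of *cs*-M (3.19) or 3 of WT-M (2.88).

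For *DFR* (-2.30 ± 1.09) and *LDOX* (-2.46 ± 1.17) the difference with 2,4-D did not pass in edgeR (adjusted p = 0.0863 and 0.0891) but did in DESeq2 (0.00938 and 0.0103), and in edgeR without library 3 of WT-M (-2.95 and -3.17). For *CHS* (0.49 ± 0.55), *UF3GT* (-1.46 ± 1.21) and *PAP1* (-0.42 ± 1.11) it did not pass. Over all genes the interaction was positive for 23.9% and negative for 20.8% with 2,4-D, and for 24.4% and 20.8% with both treatments. Of the other pathway genes, the responses of *MYB111* (4.10 ± 0.74), *UGT78D3* (3.34 ± 1.03) and *TRY* (a repressor of the complex; 3.20 ± 0.53) were higher in *cs*, and those of *MYB11* (-4.84 ± 0.73), *TT19* (-2.77 ± 0.80), *SCPL10* (-1.97 ± 0.57) and *MYB12* (-1.82 ± 0.59) lower, out of 9 and 8 called. With both treatments 13 responses were higher in *cs* and 3 lower.

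Wounding alone gave the fewest calls of the 3 treatments, in both genotypes. In WT over mock, *DFR* rose by 1.54 ± 0.42 (edgeR adjusted p = 0.00509), *CHS* by 1.08 ± 0.39 (edgeR adjusted p = 0.0282) and *F3H* passed at 8 counts against 1 over the groups. Thus 3 members rose and none fell, where 10.8% of all genes rose and 8.31% fell. *LDOX* (1.07 ± 0.45), *UF3GT* (0.48 ± 0.45), *PAP1* (0.36 ± 0.53), *TT8* (0.43 ± 0.36) and *PAP2* (2.26 ± 0.93, edgeR adjusted p = 0.0545) did not pass, but *PAP2* passed in DESeq2 (adjusted p = 0.0343) and with the replicate block (edgeR adjusted p = 0.0316).

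The replicates differed in direction. *DFR* was at 166, 84.4 and 52.5 CPM in libraries 1, 2 and 3 of WT-W and at 19.1, 25 and 61.0 in those of WT-M, a log2 ratio of 3.10, 1.75 and -0.22 in replicates 1, 2 and 3. The ratios of *CHS* were 2.34, 0.88 and -0.05, those of *LDOX* 2.57, 1.44 and -0.67, those of *UF3GT* 2.81, 0.21 and -1.39, and those of *TT8* 1.29, 0.67 and -0.92. Libraries with the same replicate number were read as 1 run of the experiment, which the methods do not state for these numbers. Within replicate 1 these genes were higher after wounding, and within replicate 3 they were not. *PAP1* had the reverse order, at -0.09, 0.37 and 1.42. Without library 1 of WT-W no member was called (*DFR* 0.95, *CHS* 0.64), and none in a fit of the 2 groups alone. *F3H* was also lost without any other single library of WT-W or library 1 or 3 of WT-M, and *CHS* without library 1 or 2 of WT-M. *LDOX* passed without library 3 of WT-M (1.78) or of WT-W (1.36), and *PAP2* without library 1 of WT-M (3.16).

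**Figure D5:**
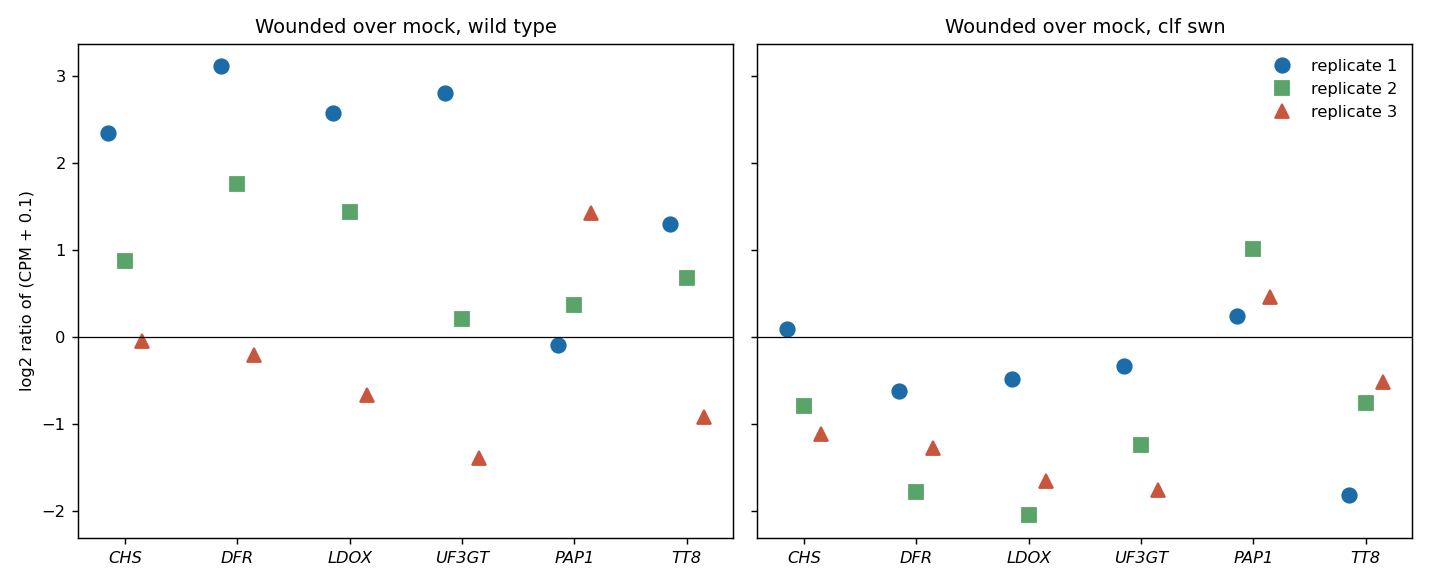
Log2 ratio of wounded over mock tissue, on the (CPM + 0.1) scale, for 6 genes in each replicate number, with WT at left and *cs* at right. In WT the points of *CHS*, *DFR*, *LDOX*, *UF3GT* and *TT8* run from above 1 in replicate 1 to below 0 in replicate 3, and in *cs* those of *DFR*, *LDOX*, *UF3GT* and *TT8* are below 0 in all 3 replicates.

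Among the other pathway genes of wounded WT 10 rose and 2 fell. All 4 early enzymes rose, *CHIL* by 1.25 ± 0.39, *FLS1* by 1.18 ± 0.30, *F3'H* by 1.1 ± 0.35 and *CHI* by 1.00 ± 0.28, together with *TT19* by 1.72 ± 0.35, *C4H* by 1.28 ± 0.23 and *MYB11* by 2.47 ± 0.81. *HY5* fell by 0.98 ± 0.31. With a fold rule between every pair of replicates 4 of the other pathway genes kept a call here. Whether these calls held without library 1 of WT-W, as no member call did, was not examined. In *cs* no member was called after wounding (3 at an unadjusted p under 0.05, and 0 called by DESeq2), where 1.01% of all genes rose and 0.0568% fell, and none of the other 46 was (4 at an unadjusted p under 0.05, and 0 by DESeq2). *DFR* was at 12.4, 4.81 and 6.89 CPM in *cs*-W, below each *cs*-M library (-1.09 ± 0.47, edgeR adjusted p = 0.262). Without library 1 of *cs*-W, *LDOX* fell by 2.02 and *PAP2* by 2.57.

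The difference between the genotypes in the response to wounding passed for *DFR* (-2.63 ± 0.63, edgeR adjusted p = 0.00566), *LDOX* (-2.18 ± 0.69, edgeR adjusted p = 0.0296) and *CHS* (-1.58 ± 0.54, edgeR adjusted p = 0.0468), all lower in *cs*, where 6.39% of all genes were lower and 8.67% higher. *DFR* kept its call without each of the libraries in turn. *CHS* was lost with no filter on low counts (-1.59) and without any of 9 single libraries (-1.69 to -1.14), and *LDOX* without any of 7 (-2.14 to -1.64). Without library 1 of *cs*-W or 3 of WT-M there were 5 called members. *PAP2* passed with the replicate block (-3.05, edgeR adjusted p = 0.0442), and *TT8* (-1.64 ± 0.63), *UF3GT* (-1.39 ± 0.70) and *PAP1* (0.20 ± 0.84) did not pass. All 4 other early enzymes were lower in this test too, at -1.57 to -1.32, with *TT19* at -2.17 ± 0.51 and *5MAT* at -1.60 ± 0.54, and none of the 46 was higher.

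Mock treatment over untreated tissue gave few calls. In WT the 8 tested members had a median of -1.035, with 6 at an unadjusted p under 0.05 and 2 called by DESeq2. Mean *DFR* was at 90.9 CPM in WT-ctrl and 35.1 in WT-M, *CHS* at 75.6 and 37.0 and *TT8* at 8.48 and 7.64. Only *DFR* was called in edgeR, at -1.40 ± 0.39 (edgeR adjusted p = 0.0481), where 1.16% of all genes fell and 0.805% rose. This call depended on the untreated set: with C0 alone *CHS* (-1.40), *PAP1* (-1.47), *F3H* and *DFR* passed, and with C1 alone, an alternative added after the data were seen, none did (*DFR* -0.81, edgeR adjusted p = 0.5). It was also lost without library 1 (-1.42), 2 (-1.23) or 3 (-1.29) of set C0 or library 1 (-1.11) or 2 (-1.21) of WT-M, and without library 1 of set C1 *CHS* passed as well (-1.26). *MYBL2* was also uneven, at 17.1 CPM in WT-ctrl and 7.19 in WT-M, and did not pass. Of the other pathway genes *HY5* and the repressor *LBD38* rose and *SCPL10*, *5MAT* and *TT19* fell. In *cs* no member was called (1 at an unadjusted p under 0.05, and 0 called by DESeq2), where 0.881% of all genes rose and 0.114% fell. *DFR* was at 16.8 to 19.1 CPM in *cs*-M, above all 6 untreated libraries, at 1.29 ± 0.39 (edgeR adjusted p = 0.0867), and passed in a fit of the 2 groups alone (1.27). None of the other 46 genes was called in *cs* (8 at an unadjusted p under 0.05, and 0 by DESeq2).

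Over the 10 groups, the order of levels was not the same for the early and the late steps. *CHS* ran from *cs*-M (234 ± 15.2 CPM, SD, n = 3) through the other *cs* groups to *cs*-WA (109 ± 44.4), then WT-W (77.5 ± 34.3) and down to WT-A (14.1 ± 2.49), with the libraries of each group overlapping those of the next. *DFR* ran from WT-W (101 ± 58.3) and WT-ctrl through WT-M, *cs*-M, *cs*-W and *cs*-ctrl to WT-A, WT-WA, *cs*-WA and *cs*-A (0.227 ± 0.277). The libraries of neighbours were apart between WT-M and *cs*-M, *cs*-M and *cs*-W, *cs*-ctrl and WT-A, and WT-WA and *cs*-WA. *LDOX* gave nearly the same order. *TT8* ran by genotype, with all 5 WT groups above all 5 *cs* groups in mean, and gaps only between WT-M and WT-A and between *cs*-W and *cs*-A.

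Over the 10 group means of log2(CPM + 1), *DFR*, *LDOX* and *UF3GT* resembled each other and a few genes of the same branch. The genes most like *DFR*, of 19293 with a mean of at least 1 CPM, were *LDOX* (Pearson r = 0.993), *TT19* (AT5G17220, r = 0.991) and *UF3GT* (r = 0.985). Those most like *UF3GT* were *5MAT* (AT3G29590, r = 0.996), *LDOX* (r = 0.988) and *UGT75C1* (AT4G14090, r = 0.987), and those most like *LDOX* were *DFR*, *UF3GT* and *TT19*. Of these genes *DFR*, *LDOX* and *UF3GT* are members themselves. *TT19*, *5MAT* and *UGT75C1* are from the pathway list, which was chosen with earlier results of these data known. Groups, libraries and depth are shared by all of them. *PAP1* correlated with *UF3GT* at 0.972, *TT8* with *LDOX* at 0.894 and *CHS* with *DFR* at 0.0864.

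The genes most like the other members were not genes of the list. For *CHS* they were *CSLC12* (AT4G07960, r = 0.987), AT1G10000 (0.985) and AT4G08910 (0.979). For *PAP1* they were *HIPL2* (AT5G62630, 0.988), *CYP709B3* (AT4G27710, 0.986) and AT3G61750 (0.985), and for *TT8* AT1G78940 (0.986), AT3G07570 (0.985) and AT2G36570 (0.984). Over the 35 single libraries the partners of *DFR*, *LDOX* and *UF3GT* were still among the first 4 genes, while *HIPL2* stood at place 192 for *PAP1* and AT1G78940 at place 56 for *TT8*.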

How the data were processed

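The counts of 35 libraries from wild-type and *clf swn* shoot apices were used. Per the labels and the methods, the authors trimmed reads with Trimmomatic 0.32, aligned them to TAIR10 with TopHat2 2.0.10 and counted them per gene with HTSeq, and the deposited counts are not normalized. Libraries came from an unstranded kit, and 12 shared a lane. Every count column was used (0 left out).

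Samples were grouped by the labels. The untreated columns carry only their group, and the mock columns (C2) were assigned by elimination. Counts were tested with edgeR 4.0.16 (limma 3.58.1, R 4.3.3): filterByExpr, TMM, and 1 quasi-likelihood model of 10 groups over 21115 genes, with 20 comparisons. DESeq2 1.42.0 and other filters, scalings, call rules and subsets were alternatives. CPM were computed from library totals. The members and lists were chosen with earlier results of these data known. Gene models and upstream sequence came from TAIR10.1 (RefSeq), matched by locus name.

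The rule for named genes took all members, *CLF* and *SWN*, listed regulators, the called genes of each list (at most the 4 largest changes) and the 3 genes most correlated with each member of at least 1 CPM. On simulated data, 90% of 200 genes changed 4-fold were recovered for *cs*-WA over WT-WA and 81% for the genotype difference with both treatments. There 7 and 9 unchanged genes were called, and 0 genes for unchanged WT-A over WT-M. The changed genes were drawn from all tested genes at their mean level, so these shares do not carry over to members with a few counts per library. Replicates with the same number were made at the same time per the methods, so the numbers pair the samples. Their deviations had a median correlation of 0.0576 over 182 pairs, against -0.0322 over 364 pairs with different numbers. Totals and intervals cover counting error only, since the reads carry no molecular identifiers.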

Additional observations from a re-analysis of the deposited data

Results flagged for a closer look

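In *cs*-ctrl, 1 of the 6 libraries stood apart from the others for *CHS*, at 264 CPM, which is set C0 library 3. For *BAN* in WT-ctrl the library with its single count, at 0.0682 CPM, stood apart from 4 libraries at 0. In all 18 combinations of a gene and an untreated group were looked at, and chance alone sets a library apart in about 1 of 20.

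The response to treatment differed between the genotypes, by the test of the interaction in edgeR, for 7 of 24 combinations of a tested gene and a treatment. Over all genes the interaction was positive for 23.9% and negative for 20.8% with 2,4-D. With wounding these shares were 8.67% and 6.39%, and with both treatments 24.4% and 20.8%. With 2,4-D the log2 difference of *cs* minus WT was -5.83 for *PAP2* and -2.54 for *TT8*, and with wounding and 2,4-D it was -5.22 for *PAP2* and -2.29 for *TT8*. With wounding it was -2.63 for *DFR*, -2.18 for *LDOX* and -1.58 for *CHS*.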

How the results depend on the processing

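No member change that passed the test, in the reported fit or in an alternative, had the opposite sign in the other of the pair. Some changes that passed in neither did, such as *PAP2* in *cs*-W over WT-W (0.80, and -1.20 without library 1 of *cs*-W) and *UF3GT* (-0.41, up to 0.29 with a library left out) and *PAP1* (0.19, down to -0.57) in *cs*-WA over WT-WA. Outside of single libraries left out, 1025 of the recomputed member changes had the same status, 31 lost a call and 19 gained one. With a library left out 1092 had the same status, 76 lost a call and 16 gained one. The same status includes changes called in neither fit, so these numbers are not shares of calls kept. Depth limits the late enzymes and activators with 2,4-D, at 0 to 9 counts per *cs*-A library and 1 to 13 per *cs*-WA library for the enzymes.

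The count of called members, and of other pathway genes in brackets, moved by over 1.5 times as follows. A fold rule between every pair of replicates gave 5 [19] in place of 8 [29] for *cs*-ctrl over WT-ctrl, 4 in place of 7 for *cs*-M over WT-M, 3 in place of 6 for WT-A over WT-M, 1 [4] in place of 3 [12] for WT-W over WT-M, 0 [0] in place of 1 [5] for WT-M over WT-ctrl, and [7] in place of [17] for *cs*-A over *cs*-M, [11] of [20] for *cs*-WA over *cs*-M, [1] of [5] for WT-WA over WT-A, [1] of [3] for *cs*-WA over *cs*-A and [8] of [15] for *cs*-WA over *cs*-W. A minimum of 10 counts in every library left *CHS* as the one member tested, so that the count was 0 or 1 in every comparison: 1 [14] for *cs*-ctrl, 1 [12] for *cs*-M, 1 [13] for *cs*-A, 1 [14] for *cs*-W and 1 for *cs*-WA, each over WT, 1 [13] for WT-A, 1 for WT-W, 0 [15] for WT-WA, 0 [9] for *cs*-A and 1 [9] for *cs*-WA, each over mock, 1 [18] for WT-WA over WT-W, 0 [7] for *cs*-WA over *cs*-W, [1] for *cs*-WA over *cs*-A, 0 [3] for WT-M over WT-ctrl, and 0 [9], 1 [4] and 0 [8] for the genotype difference with 2,4-D, wounding and both. Fits of the 2 groups alone gave 0 for WT-W over WT-M, 0 [0] for WT-M over WT-ctrl, 4 for *cs*-WA over *cs*-W, 1 for *cs*-M over *cs*-ctrl, [2] for WT-WA over WT-A and [1] for *cs*-WA over *cs*-A. DESeq2 gave 5 in place of 3 for *cs*-WA over WT-WA, 2 for WT-M over WT-ctrl, 4 in place of 2 for the genotype difference with 2,4-D and [8] for WT-WA over WT-A. No filter on low counts gave 0 for WT-M over WT-ctrl and 1 for the genotype difference with both treatments. Set C0 alone gave 4 [8] and set C1 alone, chosen after seeing the data, 0 [0] for WT-M over WT-ctrl. The cause was not tested, beyond the fewer genes or libraries that some alternatives hold.

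With the replicate number as a block the genotype difference with both treatments had 1 called member in place of 2 (*TT8* lost, -2.21), and *PAP2* was gained for *cs*-A over WT-A (-2.21), WT-W over WT-M (2.33) and the genotype difference with wounding (-3.05). The block changed no other call of a member.

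With each library left out in turn, the count of called members was 7 to 8 for *cs*-ctrl, 5 to 8 for *cs*-M, 5 to 7 for *cs*-A, 6 to 7 for *cs*-W and 3 for *cs*-WA, each over WT, 6 for WT-A, 0 to 3 for WT-W and 5 to 6 for WT-WA over mock, 5 to 6 for *cs*-A, 0 to 2 for *cs*-W and 5 to 6 for *cs*-WA over mock, 0 for WT-WA over WT-A and *cs*-WA over *cs*-A, 7 for WT-WA over WT-W, 3 to 7 for *cs*-WA over *cs*-W, 0 to 2 for WT-M over WT-ctrl, 0 for *cs*-M over *cs*-ctrl, and 1 to 4, 1 to 5 and 1 to 3 for the genotype difference with 2,4-D, wounding and both.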
